A study of Homo sapiens with 12 samples.

Results

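The comparison described here is the baseline difference between a NOTCH1-targeted line (NKO) and a control line (NT) of TeloHAEC cells that had no added Notch ligand. Its members are the 4 libraries on the IgG coating of these lines, 2 of NKO and 2 of NT, of 12 libraries in the series. They were chosen from the names of the columns in the table of TPM (an abundance scaled for transcript length and to a common total per library), not from any measured value. TeloHAEC is a line of human aortic endothelial cells immortalised with telomerase. Both lines were grown to the same passage, plated on plastic coated with IgG at 2.5 mg/mL and harvested after 24 h. The NKO line carries the genotype label NOTCH1 KO and was made with Cas9 and a guide RNA, and the NT line carries the label wild type. Used beside them were the same lines on a coating of the ligand DLL4 at the same concentration (2 libraries each) and a TSPAN14-targeted line on IgG (TKO, 2 libraries). Each genotype is 1 line, and whether a line is a clone or a pool is not given in the sources used here. A difference between NKO and NT therefore cannot be told apart from any other difference between the lines. Libraries of a group are labelled as biological replicates with no further word on separate cultures. The p-values therefore measure a difference against the spread between libraries within groups, pooled over all 12 libraries of the series.

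Notch receptors are membrane proteins that are cleaved when a ligand on a neighbouring cell binds them. The released intracellular part joins the DNA-binding protein RBPJ in the nucleus and turns on genes such as those of the HES and HEY repressor families. In endothelium NOTCH1 is known for its part in arterial identity, in the choice between tip and stalk cells of a sprout and in holding back the cell cycle. IgG serves as the ligand-free control coating, on which any Notch signal has to come from the cells' own ligands.

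The promoters of 3 Notch target genes are shown because these genes hold the core of the RBPJ binding motif there and their calls between the lines differed. HES1 and HES4 fell in NKO cells, whereas HEY2 did not pass the test on IgG. The sequences are the 250 bases before the start of each gene in RefSeq (GRCh38.p14), on the strand of the gene, and capitals mark TGGGAA or its reverse complement. HES1 lies at chr3:194135898-194136147 (plus strand), HES4 at chr1:1000098-1000347 (minus strand) and HEY2 at chr6:125749382-125749631 (plus strand).
HES1: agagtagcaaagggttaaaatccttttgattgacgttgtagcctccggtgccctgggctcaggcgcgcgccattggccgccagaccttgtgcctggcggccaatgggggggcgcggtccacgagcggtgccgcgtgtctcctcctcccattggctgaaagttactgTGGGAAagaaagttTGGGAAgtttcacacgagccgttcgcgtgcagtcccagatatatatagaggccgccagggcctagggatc
HES4: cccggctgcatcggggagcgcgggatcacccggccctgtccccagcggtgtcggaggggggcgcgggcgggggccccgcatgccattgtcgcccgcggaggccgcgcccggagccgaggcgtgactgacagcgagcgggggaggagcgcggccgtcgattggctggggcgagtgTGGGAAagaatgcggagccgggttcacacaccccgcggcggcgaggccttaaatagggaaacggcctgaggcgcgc
HEY2: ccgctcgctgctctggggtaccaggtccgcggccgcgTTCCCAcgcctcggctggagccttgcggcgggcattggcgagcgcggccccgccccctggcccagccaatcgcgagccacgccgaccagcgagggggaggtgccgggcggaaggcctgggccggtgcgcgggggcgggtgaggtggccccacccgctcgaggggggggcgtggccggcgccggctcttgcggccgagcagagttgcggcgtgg
HES1 holds the core 2 times, with the first base at -84 and -70 from the start, HES4 holds it at -76 and HEY2 at -213 on the other strand. In each of the 3 genes 1 of the matches is preceded by G and so reads GTGGGAA, a longer form that contains the shorter one. On either strand TGGGAA is found in 20.8% of all 35116 promoters of this length in the table and GTGGGAA in 5.43%. LFNG has 2 entries in the table, of which 1 holds TGGGAA, at -248, and is not shown. HES2, HES7, NRARP and DLL4 hold neither in this window, which says only that these letters are not there.

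All 10 endothelial markers examined were tested, among them CDH5, the adhesion molecule VE-cadherin, at 287 and 308 TPM in the NT libraries and 381 and 341 in the NKO libraries. CDH5 had no call, but 1 of the 10, VWF, was called higher and 1, CLDN5, lower in NKO cells, both described further on. Over all genes tested 4.92% were called higher and 5.74% lower. Of 8 markers each of smooth muscle, fibroblasts, leukocytes, epithelium and neurons, 6, 6, 6, 5 and 4 lay below the filter on low values. The summed TPM of the fibroblast list was 5.83 and 5.80 in the NT libraries and 6.75 and 8.66 in the NKO libraries, with LUM and DPT listed at 0 in all 4, and that of the smooth muscle list was 99.8, 115, 121 and 106. Of the markers of other cell types the keratin KRT18 was called higher, and the actin-bundling LCP1 and the tubulin TUBB3 lower, in NKO cells. The KRT18 call ended without NT 2 (limma adjusted p = 0.11) or NKO 2 (adjusted p = 0.072), and the LCP1 call without NT 3 (adjusted p = 0.075). The summed TPM of the epithelial list was 724 and 838 in the NT and 941 and 1277 in the NKO libraries, and that of the neural list 511 and 599 against 287 and 309. The part of other cell types in the results was not tested.

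NKO cells differed from NT cells across much of the transcriptome. Of 13299 genes tested, 1418 (10.7%) passed a limma adjusted p of 0.05, of which 654 were higher (4.92% of genes tested) and 764 lower (5.74%) in NKO cells. The median change was 0.76 among the higher and -0.72 among the lower genes, on the scale of differences of log2(TPM + 1) used throughout, against 0.06 for all genes tested. At least a 2-fold change was seen for 185 higher (1.39%) and 230 lower genes (1.73%), and at least a 4-fold change for 36 and 57. The libraries of the lines did not overlap in any of the 1418 genes, which was also the case for 52.0% of all genes tested. Pearson's r across genes was 0.991 between the NT libraries, 0.988 between the NKO libraries and 0.972 to 0.975 between the lines. The number of genes called depended on single libraries, being 813 without NT 2, 664 without NT 3, 820 without NKO 1 and 1579 without NKO 2. In a fit of only the 4 IgG libraries, which has 2 residual degrees of freedom, it was 424.

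The line difference on DLL4, between 4 other libraries of the same lines, mostly had the same sign. The comparisons share no library, but all 12 libraries set the filter and the variances of the fit, so the sets of calls are not independent of each other. Of the 654 genes higher on IgG, 615 (94%) were also higher on DLL4 and 444 (67.9%) were called higher there, while 5 were called lower. Of the 764 lower genes 723 (94.6%) were lower on DLL4, 529 (69.2%) were called lower and 1 was called higher. The background on DLL4 was 2758 genes called (20.7%), of which 1520 were higher (11.4%) and 1238 lower (9.31%), and of the genes not called on IgG 15% were called on DLL4. The 973 genes called in the same direction on both coatings (7.32% of genes tested) make up 68.6% of the IgG calls and 35.3% of the DLL4 calls. Among genes that changed at least 2-fold on IgG, 160 of 185 higher (86.5%) and 187 of 230 lower ones (81.3%) were called in the same direction on DLL4. The test of whether the line difference depended on the coating called 118 genes (0.887%), with 42 more positive (0.316%) and 76 more negative (0.571%) on DLL4.

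**Figure D1:**
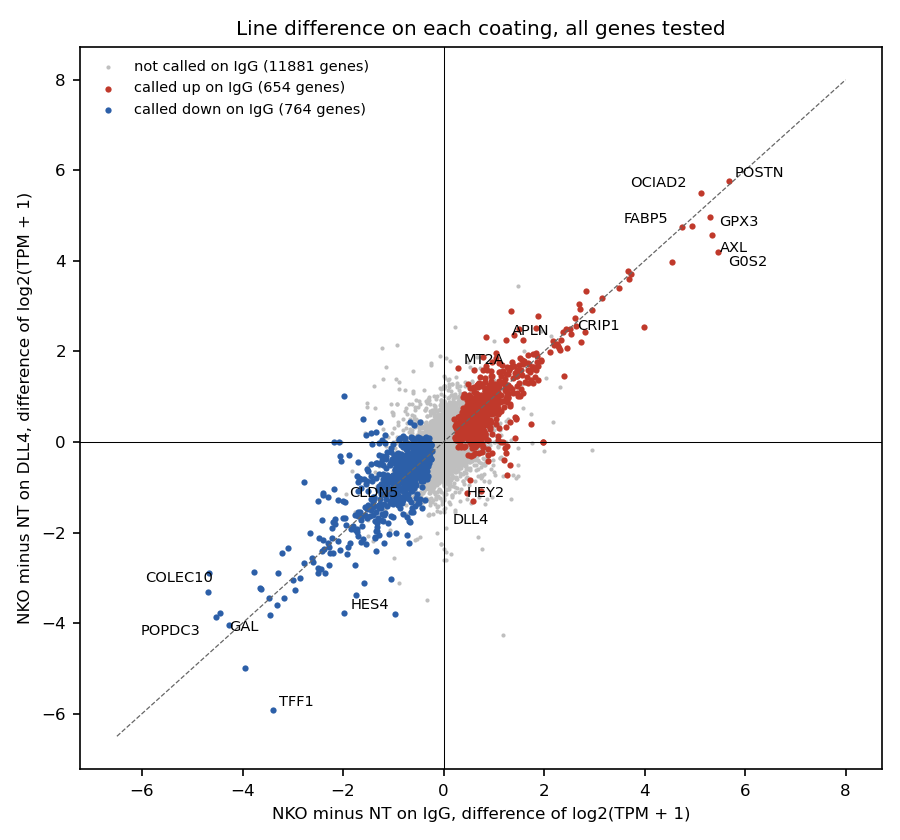
Difference between NKO and NT in log2(TPM + 1) on IgG (horizontal axis) and on DLL4 (vertical axis), one point per gene tested, coloured by the call on IgG, with a dashed line of equal difference. Most of the 654 higher and 764 lower genes lie in the quadrants of equal sign, and POSTN, G0S2, COLEC10 and GAL lie far from the centre on both axes.

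NOTCH1, the targeted gene (chromosome 9, 136494433 to 136545786, minus strand), was at 17.8 and 19.6 TPM in the NT libraries and at 19.2 and 15.6 TPM in the NKO libraries. The libraries overlapped, and the change of -0.10 ± 0.16 (SE) did not pass the test (limma adjusted p = 0.72). Without NKO 2 its sign turned, to 0.04. On DLL4 the NKO libraries, at 16.5 and 19.5 TPM, lay below the NT libraries, at 31.5 and 24.7 TPM. Neither protein nor the edited sequence was measured in these data, and the mRNA level alone does not check the label, since an edited gene can still be transcribed. Of the other receptors NOTCH2 was at 7.04 ± 0.52 TPM in NT and 8.11 ± 2.09 TPM in NKO cells on IgG (SD, n = 2), also without a call. None of the 3 receptors tested was called on IgG, whereas on DLL4 1 of the 3 was called lower and none higher. Over all genes 9.31% were called lower on DLL4.

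Among the 5 ligand genes, DLL3, an atypical ligand that does not activate receptors on other cells, fell from 3.32 and 3.91 TPM in the NT libraries to 0.977 and 0.814 TPM (-1.28 ± 0.19, limma adjusted p = 0.0016). JAG2 rose from 0.918 and 0.814 to 2.07 and 3.30 TPM (0.96 ± 0.23, adjusted p = 0.021), but it lost that call without NT 2 (adjusted p = 0.082), NT 3 (adjusted p = 0.12) or NKO 2 (adjusted p = 0.091). The main endothelial ligands were close between the lines: DLL4 was at 5.09 and 5.41 TPM in NT and 5.33 and 5.63 TPM in NKO cells, with a change of 0.05 ± 0.13, and JAG1 was at 42.9 and 44.6 against 46.7 and 31.1 TPM.

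Of 31 tested genes that process, modify or relay the receptors, 1 rose and 2 fell. These counts lie near the shares over all genes, 4.92% called higher and 5.74% called lower. NUMB, an adaptor that antagonises Notch, rose from 31.7 and 33.2 to 61.9 and 50.9 TPM (0.77 ± 0.12, limma adjusted p = 0.0017). TSPAN33, a tetraspanin that binds the protease ADAM10, fell from 6.37 and 7.91 to 2.36 and 1.84 TPM (-1.39 ± 0.18, adjusted p = 0.00055). The glycosyltransferase gene LFNG fell from 14.6 and 17.4 to 6.62 and 10.5 TPM (-0.86 ± 0.23, adjusted p = 0.035). The LFNG call ended without NT 2, NT 3 or NKO 1 (adjusted p = 0.086, 0.21 and 0.24), and that of NUMB in the fit of the 4 IgG libraries alone (adjusted p = 0.054). ADAM10 itself (0.54 ± 0.22), RBPJ (0.11 ± 0.17), the gamma-secretase gene NCSTN (0.12 ± 0.09), and TSPAN14 (-0.10 ± 0.10) did not pass the test. Of the genes of the cleavage steps common to all Notch receptors, none of those named here was called.

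Target genes of the pathway that were called were all lower in NKO cells. Of 22 tested members of a list of 26 Notch targets none rose and 7 fell, with a median change of -0.13, beside 4.92% of all genes called higher and 5.74% called lower. HES4, a transcriptional repressor, fell from 6.14 and 7.56 TPM in the NT libraries to 0.706 and 1.32 TPM in the NKO libraries (-1.97 ± 0.19, limma adjusted p = 7.8e-05). HES7, known for its oscillation in the embryonic segmentation clock, fell from 8.44 and 6.61 to 0.948 and 1.16 TPM (-2.05 ± 0.31, adjusted p = 0.0016). HES1, the founding target of the family, fell from 40.7 and 42.6 to 19.8 and 25.0 TPM (-0.87 ± 0.12, adjusted p = 0.00098). In all 3 both NKO libraries lay well below both NT libraries. UNC5B, a netrin receptor of arterial and tip cells, fell from 1.85 and 2.21 to 0.497 and 0.626 TPM (-0.96 ± 0.17, adjusted p = 0.0045), and SNAI2, a repressor linked to mesenchymal transition, from 5.09 and 4.83 to 1.21 and 0.768 TPM (-1.59 ± 0.19, adjusted p = 0.00039). SNAI2 lies in a stretch of chromosome 8 where most genes were lower in NKO cells, described further on. The 7 include LFNG and HES2 (-0.45 ± 0.12, adjusted p = 0.038), and HES2 lost its call without NT 3, NKO 1 or NKO 2 (adjusted p = 0.25, 0.12 and 0.091). The number called lower was 6, 5, 5 and 6 when NT 2, NT 3, NKO 1 or NKO 2 was left out and 3 in the fit of the 4 IgG libraries, where the adjusted p was 0.053 for HES1 and 0.052 for UNC5B.

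The other 15 targets tested had no call. HEY2, a transcriptional repressor that promotes arterial fate, was at 11.1 and 11.5 TPM in the NT libraries and 15.6 and 13.4 TPM in the NKO libraries, above both, without passing the test (0.34 ± 0.11, limma adjusted p = 0.079). It was called higher without NKO 2 (adjusted p = 0.048) or with the pseudogene KPNA2P2 removed (adjusted p = 0.04). NRARP, a feedback inhibitor of Notch, was at 11.5 and 11.9 against 9.44 and 11.1 TPM (-0.18 ± 0.21). The VEGF receptor genes FLT1 (0.12 ± 0.11) and KDR (0.01 ± 0.14), the cyclin gene CCND1 (0.30 ± 0.13), MYC (0.10 ± 0.12) and CDKN1A (-0.08 ± 0.09) had no call. The arterial connexin genes GJA4 and GJA5, singled out after their values were seen, were listed at 0 in all 4 libraries.

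On the ligand coating the same list had 2 members higher and 16 lower in NKO cells (11.4% and 9.31% of all genes), with a median of -0.89 and 5 called in the same direction on both coatings. For HES4, HEY2, DLL4, SNAI2, FLT1 and CDKN1A the line difference was more negative on DLL4 by the test of the difference itself. HES4 was at 123 and 110 TPM in the NT and 6.28 and 9.19 TPM in the NKO libraries on DLL4, a further -1.79 ± 0.27 beyond the difference on IgG (limma adjusted p = 0.013). HEY2 was at 58.1 and 54.8 against 23.2 and 21.1 TPM there (-1.65 ± 0.15, adjusted p = 0.00084). The ligand gene DLL4 was at 45.6 and 40.7 against 9.75 and 11.9 TPM (-1.95 ± 0.18, adjusted p = 0.00084). HES1 fell on DLL4 too, by 0.47 ± 0.12 (adjusted p = 0.02), with no call for a difference between the coatings (adjusted p = 0.36). HES7 was at 2.94 and 2.34 TPM in the NT libraries on DLL4, below both NT libraries on IgG. The NKO libraries were at 1.65 and 1.80 TPM there, and HES7 had no call on DLL4 (adjusted p = 0.39). HES7 was thus called on IgG and not on DLL4, but the difference between the coatings did not pass the test (adjusted p = 0.14).

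**Figure D2:**
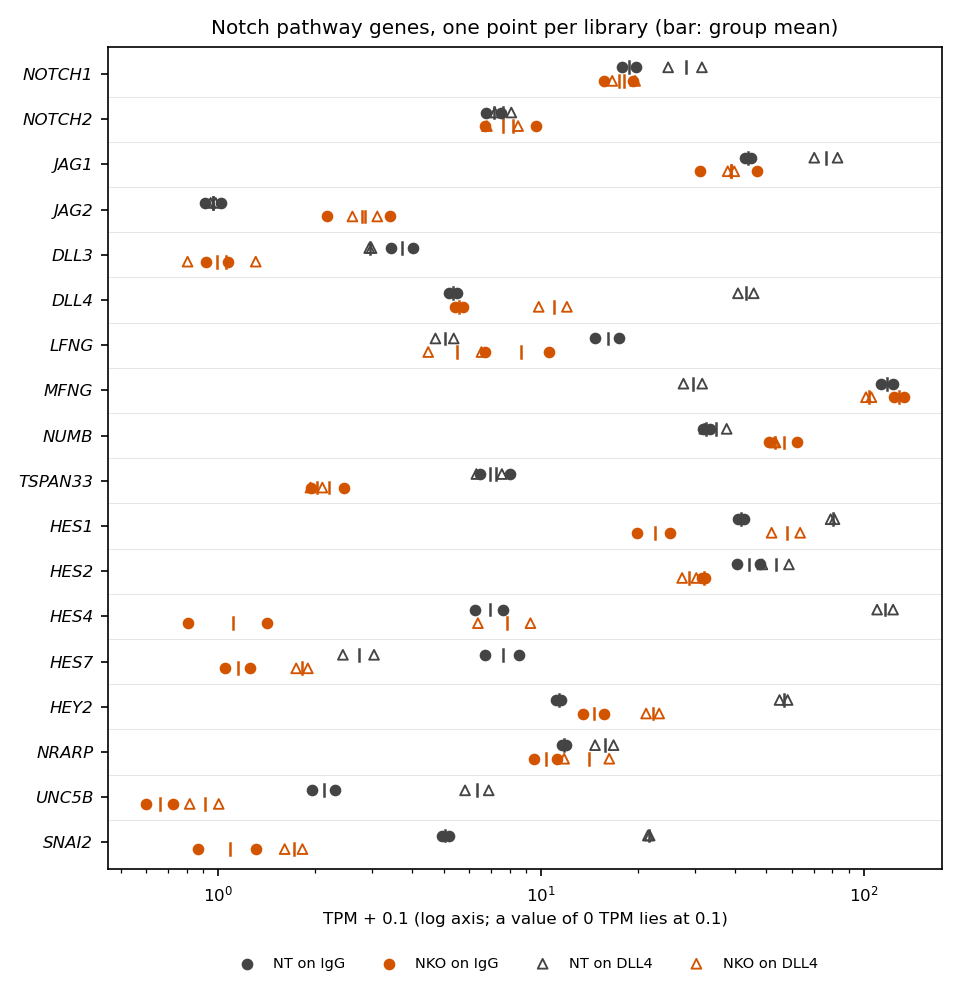
TPM (log axis, with 0.1 added so that 0 can be drawn) of Notch ligands, receptors, machinery and targets, one point per library and a bar at the group mean, for NT and NKO on IgG (filled circles) and DLL4 (open triangles). The NKO points lie left of the NT points on both coatings for HES1, HES4, UNC5B and SNAI2, whereas for HEY2 and DLL4 this is seen on DLL4 and not on IgG.

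The largest differences between the lines lay outside the Notch list, several of them in genes below 1 TPM in one line. POSTN, which encodes the matrix protein periostin, rose from 0.394 and 0.085 TPM to 64.1 and 59.5 TPM (5.67 ± 0.15, limma adjusted p = 5.2e-09). G0S2, an inhibitor of the lipase ATGL, was listed at 0 in both NT libraries and was at 44.2 and 41.9 TPM in the NKO libraries (adjusted p = 2.0e-08). AXL, a receptor tyrosine kinase, rose from 0.133 and 0.180 to 36.2 and 57.4 TPM (5.33 ± 0.29, adjusted p = 1.5e-06). The secreted glutathione peroxidase gene GPX3 rose from 0.277 and 1.34 to 69.2 and 65.8 TPM (5.31 ± 0.22), and OCIAD2 from 1.87 and 3.75 to 131 and 125 TPM (5.12 ± 0.21). GPAT2, a mitochondrial acyltransferase, rose by 4.95 ± 0.13, and the collagen-binding matrix genes BGN and AEBP1 by 4.54 ± 0.33 and 3.69 ± 0.24. FABP5, a fatty acid binding protein with many pseudogene copies, was at 0.0982 and 0 TPM in the NT libraries and 22.5 and 32.7 TPM in the NKO libraries. LTK, RPL39L and GPX7 rose by 3.67 ± 0.25, 3.50 ± 0.15 and 3.16 ± 0.27. RAMP2, a coreceptor for adrenomedullin, and SCML1 were also listed at 0 in both NT libraries, and reached 6.8 and 6.69 TPM and 13.2 and 11.4 TPM in the NKO libraries.

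The largest decreases went as far in the other direction. COLEC10, a collectin of the complement lectin pathway, fell from 43.2 and 41.6 to 0.561 and 0.802 TPM (-4.69 ± 0.17, limma adjusted p = 6.5e-08). POPDC3, a membrane protein of the Popeye family, fell from 28.2 and 26.3 to 0.268 and 0.180 TPM (-4.53 ± 0.16, adjusted p = 6.1e-08), and the neuropeptide gene GAL from 118 and 139 to 4.03 and 6.04 TPM (-4.44 ± 0.25, adjusted p = 1.7e-06). IGF2, an imprinted growth factor, fell from 17.5 and 20.7 to 0.646 and 0.598 TPM (-3.63 ± 0.17). The exchange factor gene MCF2L fell by 3.78 ± 0.22, the ATP receptor gene P2RX5 by 3.65 ± 0.26, the GTPase gene RHOH by 3.48 ± 0.19, the secreted trefoil peptide gene TFF1 by 3.39 ± 0.30 and the actin bundler gene ESPN by 3.31 ± 0.33. SERPINB2, an inhibitor of plasminogen activators, fell from 67.3 and 78.5 to 9.26 and 5.20 TPM (-3.21 ± 0.32). The RNA5SP411, RNA5SP412, RNA5SP413 and RNA5SP414 entries and MAGEA1 are also among the 15 largest decreases, and they have near-identical copies between which reads can be split. RNA5SP413 lost its call in the fit of the 4 IgG libraries (adjusted p = 0.056).

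In 18 genes called higher, of 13299 tested, both NT libraries were below 0.5 TPM and the NKO mean was at least 5 TPM, and 13 of them met the same limits on DLL4. In 13 genes called lower both NKO libraries were below 0.5 TPM and the NT mean was at least 5 TPM, and 9 of these did so on DLL4. Chosen by these limits after the values were seen, the first set includes TNFRSF1B, a TNF receptor, at 0.203 and 0.201 TPM in the NT and 6.68 and 7.36 TPM in the NKO libraries. The second includes TBX3, a T-box repressor, at 11.2 and 10.7 against 0.372 and 0.420 TPM, and SUGCT at 5.42 and 4.78 against 0.0788 and 0.0736 TPM. It also holds MAGEA1, MAGEA2, MAGEA6, MAGEA12 and CSAG3, neighbours on the X chromosome that belong to multigene families. Many of these states were also seen in the TKO line, the low ones more often than the high ones. In the second set all genes but INHBA and POPDC3 were also below 0.5 TPM in both TKO libraries on IgG. In the first set only FABP5 and G0S2 were below 0.5 TPM in both TKO libraries. AXL, BEND7, C9orf64, FAM50B, GPAT2, IGFBP1, MT1A, POSTN and RAMP2 were above 5 TPM in both. ADCY4, BGN, CMBL, GPX7, LTK, SCML1 and TNFRSF1B stayed below 5 TPM in both. Of these, SCML1 and TNFRSF1B had no call between TKO and NT on IgG (limma adjusted p = 0.14 and 0.10).

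Several of these genes were also far from their NT level in the TKO line. In that line, which shares the NT libraries as its control and so is given only side by side, POSTN was at 300 and 229 TPM, AXL at 96.6 and 131 TPM, GPX3 at 52.7 and 43.6 TPM and OCIAD2 at 219 and 187 TPM. IGF2, MCF2L, P2RX5, RHOH and COLEC10 had means of 0.575, 0.042, 0.823, 0.287 and 0.200 TPM there. The direct comparison of the lines on IgG gave no call between NKO and TKO for GPX3 (adjusted p = 0.16), RHOH (0.81), P2RX5 (0.925) or IGF2 (0.88) by limma, which does not show that their levels are alike. Other genes did differ between the targeted lines. G0S2 was at 0.0843 and 0.0822 TPM and FABP5 at 0 and 0.282 TPM in the TKO libraries, below NKO by 5.35 ± 0.17 (adjusted p = 1.5e-08) and 4.64 ± 0.25 (adjusted p = 7.8e-07). POPDC3 was at 18.6 and 17.2 TPM in TKO libraries, above NKO (adjusted p = 8.6e-08), and SERPINB2 was lower in NKO than in TKO cells by 5.45 ± 0.32 (adjusted p = 1.5e-06). The background was 2612 genes called between NKO and TKO on IgG (19.6%), 1164 higher (8.75%) and 1448 lower (10.9%) in NKO, and 3666 between TKO and NT (27.6%).

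**Figure D3:**
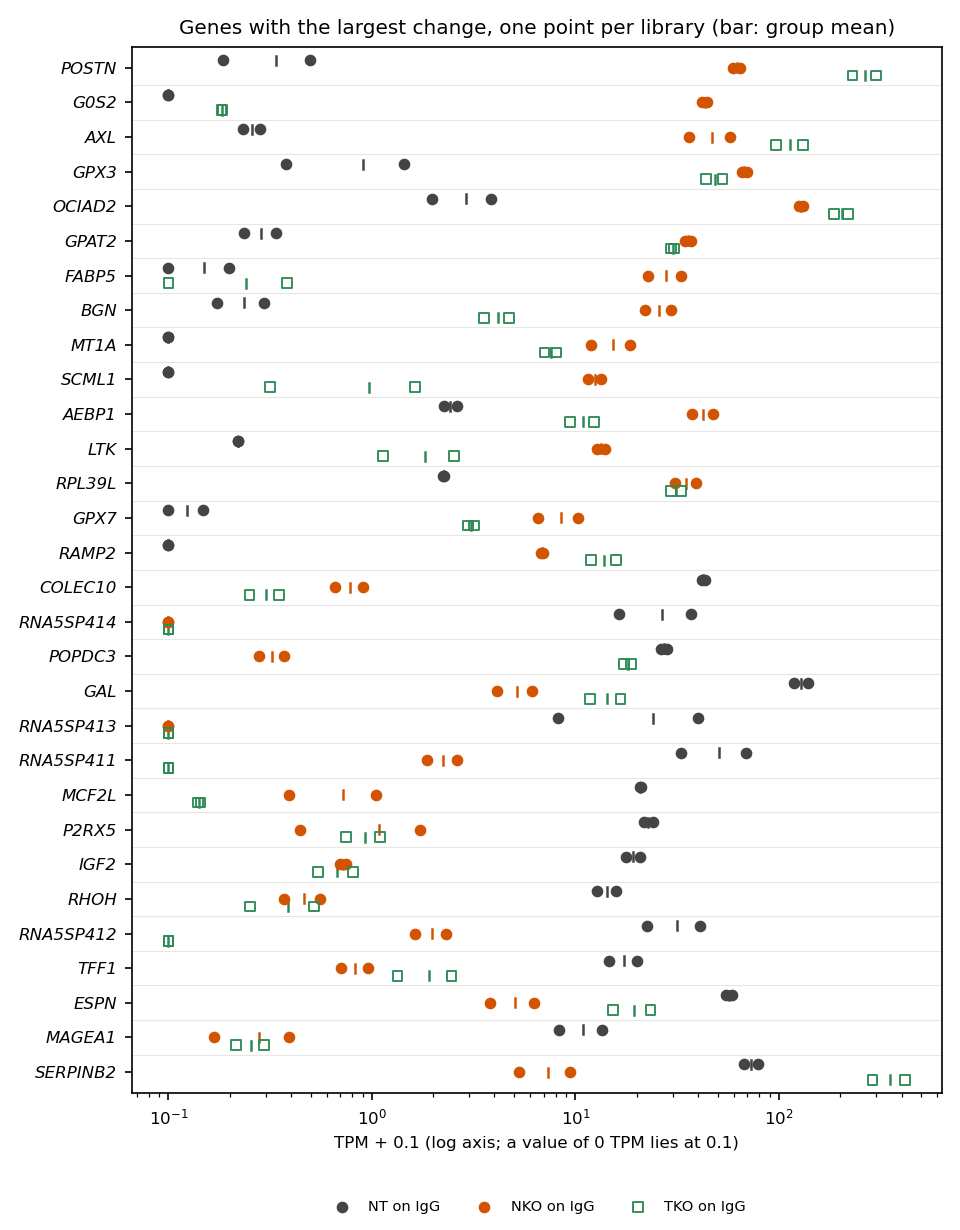
TPM (log axis, with 0.1 added) on IgG of the 15 genes with the largest increase and the 15 with the largest decrease in NKO against NT, one point per library with a bar at the group mean, and the TKO libraries beside them. NKO and TKO points lie together for GPX3, RHOH and IGF2 and far apart for G0S2, FABP5, POPDC3 and SERPINB2.

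Among very abundant transcripts the changes were smaller. CRIP1, a LIM domain protein, rose from 207 and 163 to 982 and 1163 TPM (2.54 ± 0.15, limma adjusted p = 2.0e-06), and the chromatin protein gene HMGA1 from 746 and 946 to 1213 and 1220 TPM (0.53 ± 0.10, adjusted p = 0.0067, and 0.12 in the fit of the 4 IgG libraries). RPS20, a ribosomal protein gene, fell from 2381 and 2319 to 1619.5 and 1663 TPM (-0.52 ± 0.05, adjusted p = 0.00014). PLAT, which encodes tissue plasminogen activator, fell from 1535 and 1717 to 1011 and 940 TPM (-0.73 ± 0.07, adjusted p = 8.4e-05), and both lie in the stretch of chromosome 8. The thymosins TMSB4X (0.22) and TMSB10 (-0.31), the galectin gene LGALS1 (-0.37), SPARC (0.48), MT2A (0.28) and MYL6 (-0.25) also changed, but each call ended when at least 1 library was left out. Their highest adjusted p was 0.27 for TMSB4X without NT 3, 0.19 for TMSB10 without NKO 1, 0.053 for LGALS1 without NT 3, 0.097 for SPARC without NKO 1, 0.10 for MT2A without NT 2 and 0.15 for MYL6 without NT 2.

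Most genes of endothelial identity had no call, and a few changed by a large factor. Of 28 tested genes of that list 4 rose and 1 fell (median 0.07), beside 4.92% and 5.74% of all genes. The number that rose was 2 without NT 3 and 1 in the fit of the 4 IgG libraries. CLDN5, the tight junction protein claudin-5, fell from 134 and 146 to 34.9 and 33.4 TPM (-2.0 ± 0.16, limma adjusted p = 1.7e-05) and fell on DLL4 as well, by 1.30 ± 0.16. MMRN2, a matrix protein of endothelium, rose from 82.2 and 92.1 to 146 and 157 TPM (0.79 ± 0.11, adjusted p = 0.00084), and ENG, a TGF-beta coreceptor, from 501 and 572 to 739 and 786 TPM (0.51 ± 0.07, adjusted p = 0.0012, and 0.07 in the fit of the 4 IgG libraries). VWF, the adhesive protein of Weibel-Palade bodies, rose from 10.5 and 6.63 to 36.7 and 22.2 TPM (1.66 ± 0.30, adjusted p = 0.0054) and was no longer called without NT 3 (adjusted p = 0.066) or NKO 1 (adjusted p = 0.058).

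Genes that mark arteries, veins and sprouting cells did not shift together. The background for each count of this paragraph is 4.92% of all genes called higher and 5.74% called lower. Of 23 arterial genes 3 rose and 2 fell (median 0.00), with the kinase gene BMX up from 4.33 and 4.37 to 10.2 and 9.86 TPM (1.05 ± 0.12, limma adjusted p = 0.00029) and the transcription factor gene SOX7, on chromosome 8, down from 35.0 and 35.2 to 23.1 and 20.2 TPM (-0.67 ± 0.10, adjusted p = 0.0013, and 0.059 in the fit of the 4 IgG libraries). The number of arterial genes that rose was 2 without NT 2 and 1 without NT 3, and the fit of the 4 IgG libraries called 1 higher and none lower. Of 10 venous genes 3 rose, among them NRP2, a coreceptor for VEGF-C and semaphorins (0.65 ± 0.13, adjusted p = 0.0095), and none fell. That venous number was 2 without NT 2, 0 without NT 3 and 0 without NKO 1. Of 20 tip cell genes 2 rose and 6 fell. APLN, the peptide apelin, rose from 261 and 282 to 674 and 608 TPM (1.24 ± 0.13, adjusted p = 0.00017). NID2, a basement membrane linker, fell from 40.1 and 29.4 to 14.6 and 11.6 TPM (-1.34 ± 0.16, adjusted p = 0.00039), and ANGPT2, an antagonist ligand of TIE2 encoded on chromosome 8, from 57.3 and 51.5 to 33.0 and 30.3 TPM (-0.76 ± 0.10, adjusted p = 0.00071). The number of tip cell genes that fell was 4, 3, 3 and 3 without NT 2, NT 3, NKO 1 and NKO 2, and 4 without the genes of the chromosome regions. Of 4 lymphatic genes tested MMRN1 rose, from 8.52 and 7.59 to 21.6 and 16.5 TPM (1.14 ± 0.14, adjusted p = 0.00055). PDPN rose (1.36 ± 0.30) and LYVE1 fell (-0.55 ± 0.11), but the first lost its call without NT 2, NT 3 or NKO 2 (adjusted p = 0.088, 0.082 and 0.081) and the second without NT 2 or NKO 1 (adjusted p = 0.07 and 0.06).

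Of 35 tested genes of DNA replication and S phase 16 rose, none fell and 19 had no call. Over all genes 4.92% were called higher and 5.74% lower, and the median change of the list was 0.38 against 0.06 over all genes tested. The thymidylate synthase gene TYMS rose from 111 and 108 to 199 and 191 TPM (0.83 ± 0.07, limma adjusted p = 3.1e-05), and E2F1, which drives entry into S phase, from 25.7 and 30.7 to 47.0 and 44.9 TPM (0.69 ± 0.10, adjusted p = 0.00092). MCM6, part of the replicative helicase, rose from 19.4 in both to 35.3 and 31.0 TPM (0.74 ± 0.10, adjusted p = 0.00092), and PCNA, the sliding clamp, from 288 and 281 to 384 and 362 TPM (0.39 ± 0.07, adjusted p = 0.0034). RRM2, a subunit of ribonucleotide reductase, rose by 0.62 ± 0.11 (adjusted p = 0.0051), and lost its call without NT 2 (adjusted p = 0.052). On DLL4 33 of the 35 rose, all 16 among them, beside 11.4% of all genes. The count depended on single libraries: it was 5 without NT 2, 8 without NT 3, 6 without NKO 1 and 15 without NKO 2, and 2 in the fit of the 4 IgG libraries, where E2F1 (adjusted p = 0.064), MCM6 (0.05) and PCNA (0.07) were among those lost. Without NKO 1, 1 member of the list was called lower.

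Of 30 tested genes of mitosis none rose on IgG and 2 fell, UBE2C, a ubiquitin-conjugating enzyme of the anaphase-promoting complex (-0.34 ± 0.08, limma adjusted p = 0.016), and the mitotic kinase gene PLK1 (-0.29 ± 0.08, adjusted p = 0.041). Both calls were lost without NT 3 (adjusted p = 0.056 and 0.24) or NKO 1 (0.07 and 0.06), and UBE2C also without NT 2 (0.1) and PLK1 without NKO 2 (0.12). On DLL4 12 of the 30 were called higher and none lower (median 0.22). Over all genes 4.92% were called higher and 5.74% lower on IgG, and 11.4% and 9.31% on DLL4. The proliferation marker MKI67 was at 24.6 and 18.4 TPM in NT and 28.9 and 27.0 TPM in NKO cells (0.38 ± 0.15, adjusted p = 0.13). No member of the 8 tested inhibitors, cyclins and MYC genes was called, with CDKN2B, an inhibitor of CDK4 and CDK6, at 10.03 and 11.8 against 9.99 and 9.79 TPM.

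**Figure D4:**
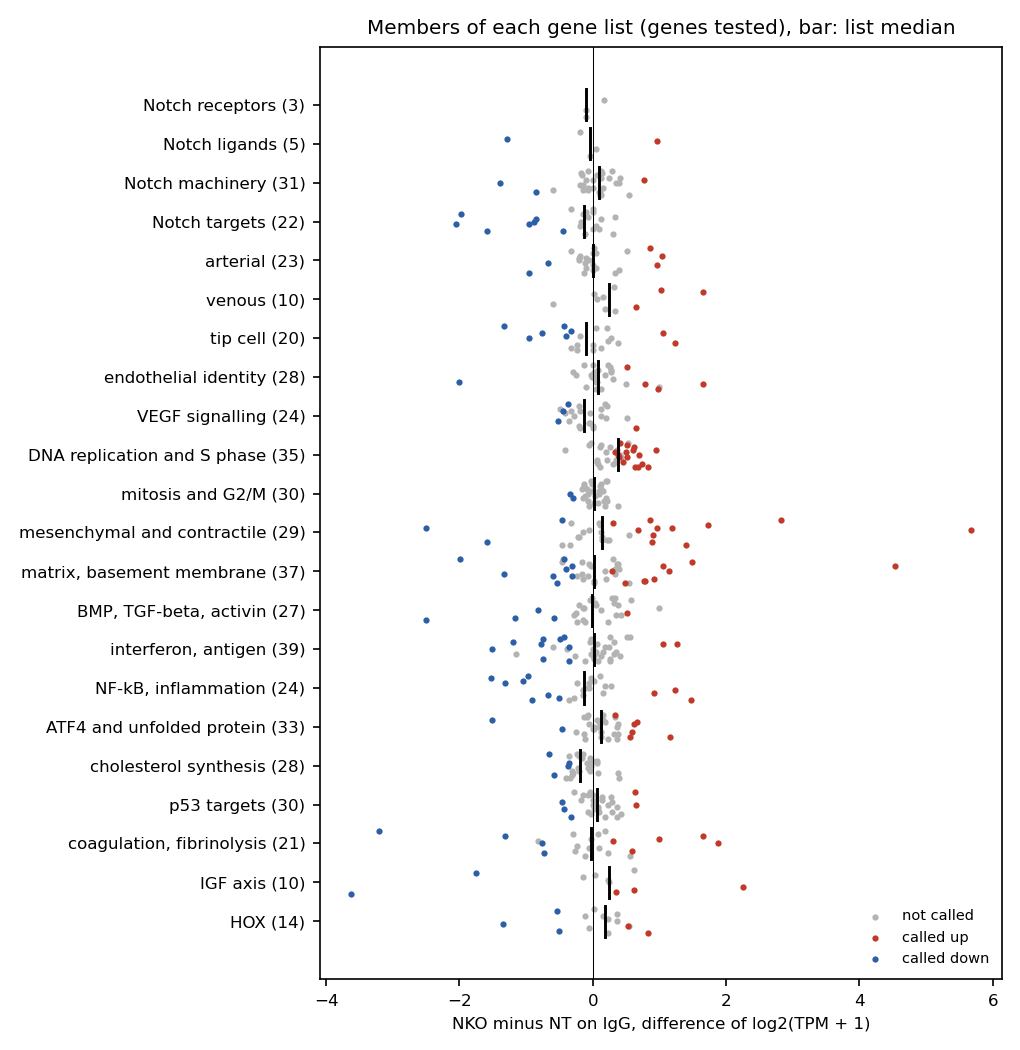
Change from NT to NKO on IgG, as a difference of log2(TPM + 1), for the tested members of 22 gene lists (number tested in brackets), one point per gene, coloured by call, with a bar at the list median. The replication list lies to the right of 0 with 16 called higher and none lower, and the Notch target list has calls on the left only.

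Of 29 tested genes of mesenchymal and contractile cells 11 rose and 3 fell (median 0.15), beside 4.92% and 5.74% of all genes. The numbers were 7 and 5 without NKO 1, 8 and 4 without NT 2, and 9 and 3 in the fit of the 4 IgG libraries. Besides POSTN, the myosin light chain gene MYL9 rose from 7.68 and 10.1 to 67.5 and 68.8 TPM (2.82 ± 0.13, limma adjusted p = 5.3e-07). ANKRD1 and CCN1, targets of YAP signalling, rose from 84.5 and 82.4 to 179 and 149 TPM (0.96 ± 0.09) and from 126 and 138 to 259 and 220 TPM (0.85 ± 0.09). INHBA, the activin subunit, fell from 4.49 and 5.74 to 0.0766 and 0.0725 TPM (-2.50 ± 0.22, adjusted p = 4.9e-05). The defining smooth muscle gene MYH11 was at 0.344 to 0.505 TPM in the 4 libraries and the fibroblast collagen gene COL1A1 at 0.377 to 0.820 TPM. On DLL4 5 of the list were called higher and 11 lower, with a median of -0.19, beside 11.4% and 9.31% of all genes. For ANKRD1 the line difference itself depended on the coating (-1.20 ± 0.12, adjusted p = 0.0011), with 244 and 263 TPM in NT and 218 and 211 TPM in NKO libraries on DLL4.

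Matrix genes went both ways. Of 37 tested 9 rose and 8 fell (median 0.02), beside 4.92% of all genes called higher and 5.74% called lower. MMP2, a gelatinase, rose from 12.9 and 14.1 to 39.0 and 40.5 TPM (1.49 ± 0.14, limma adjusted p = 6.3e-05), and TNC, tenascin-C, fell from 12.9 and 13.6 to 3.76 and 1.69 TPM (-1.99 ± 0.23, adjusted p = 0.00034). The numbers were 6, 5, 5 and 10 higher and 3, 4, 2 and 3 lower without NT 2, NT 3, NKO 1 and NKO 2. Of 27 genes of BMP, TGF-beta and activin signalling 1 rose and 4 fell, beside the same shares of all genes. ID3, a target of BMP signalling, fell from 107 and 111 to 56.4 and 66.7 TPM (-0.82 ± 0.10, adjusted p = 0.00037). The ligand gene BMP2 (-1.17 ± 0.22) lost its call without NT 3 (adjusted p = 0.062), and ID1 (-0.58 ± 0.13) without NT 2, NT 3 or NKO 1 (adjusted p = 0.072, 0.097 and 0.13), and the number of this list that fell was 2 without NT 3.

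Most of the interferon and antigen presentation genes that were called were lower. Of 39 tested 2 rose and 9 fell (median 0.02), beside 4.92% of all genes higher and 5.74% lower. PSMB9, an immunoproteasome subunit, fell from 5.89 and 6.83 to 1.36 and 1.82 TPM (-1.51 ± 0.18, limma adjusted p = 0.00034), its neighbour TAP1, a peptide transporter, from 26.6 and 25.8 to 14.6 and 15.1 TPM (-0.78 ± 0.13, adjusted p = 0.0035), and the antiviral membrane protein gene IFITM2 from 882 and 904 to 660 and 659 TPM (-0.44 ± 0.08, adjusted p = 0.0039). BST2, tetherin, rose from 29.3 and 35.5 to 78.5 and 78.8 TPM (1.26 ± 0.14, adjusted p = 0.00029). The number that fell was 6, 4, 3 and 8 when NT 2, NT 3, NKO 1 or NKO 2 was left out. IFITM2 has close paralogs, so its reads can be split between copies.

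Of 24 tested inflammatory genes controlled by NF-kB 3 rose and 7 fell (median -0.13), beside 4.92% and 5.74% of all genes. The neutrophil chemokine gene CXCL1 fell from 118 and 116 to 40.1 and 39.7 TPM (-1.53 ± 0.11, limma adjusted p = 7.8e-06). IL1B, interleukin-1 beta, fell from 3.49 and 4.11 to 1.29 and 0.604 TPM (-1.32 ± 0.23, adjusted p = 0.0036; adjusted p = 0.061 in the fit of the 4 IgG libraries). In contrast CCL2, a monocyte chemokine, rose from 43.9 and 41.5 to 82.9 and 79.5 TPM (0.91 ± 0.11, adjusted p = 0.00039) and BCL2A1, an inhibitor of apoptosis, from 4.48 and 4.68 to 14.4 and 14.5 TPM (1.47 ± 0.17, adjusted p = 0.00031). CXCL1, CCL2 and BCL2A1 were called in the same direction on DLL4. The number that fell was 4 without any 1 of the 4 libraries.

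Of 21 tested genes of coagulation and fibrinolysis 5 rose, 4 fell and 12 had no call, beside 4.92% of all genes called higher and 5.74% called lower. The urokinase gene PLAU fell from 230 and 214 to 90.7 and 85.6 TPM (-1.32 ± 0.10, limma adjusted p = 8.6e-06) and was lower on DLL4 too (-1.97 ± 0.10), so that the genes of both plasminogen activators, PLAU and PLAT, and of their inhibitor SERPINB2 were lower in NKO cells. SERPINE2, another serpin that inhibits proteases, rose from 28.99 and 31.0 to 49.3 and 42.3 TPM (0.59 ± 0.10, adjusted p = 0.0039), a call lost in the fit of the 4 IgG libraries (adjusted p = 0.084). The number that rose was 2, 1, 2 and 3 without NT 2, NT 3, NKO 1 and NKO 2.

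Of 33 genes of the ATF4 and unfolded protein response 6 rose and 2 fell, beside 4.92% and 5.74% of all genes, with CHAC1, a glutathione-degrading enzyme, up from 7.91 and 8.99 to 20.8 and 19.3 TPM (1.16 ± 0.16, limma adjusted p = 0.00085). In that list the lipoprotein receptor gene VLDLR fell from 25.8 and 25.4 to 9.63 and 7.17 TPM (-1.51 ± 0.24, adjusted p = 0.0023). The rises of ASNS and PSAT1, which make asparagine and serine, ended without NT 3 (adjusted p = 0.065 and 0.054), and the number that rose was then 2, as in the fit of the 4 IgG libraries. Of 28 cholesterol synthesis genes none rose and 4 fell, led by INSIG1, a regulator of that pathway, from 82.4 and 83.9 to 54.8 and 49.6 TPM (-0.66 ± 0.11, adjusted p = 0.0029). The fall of 4 became 2, 1, 1 and 3 without NT 2, NT 3, NKO 1 and NKO 2. Of 30 p53 targets 2 rose and 3 fell, and the quinone reductase homolog TP53I3 (-0.45 ± 0.08, adjusted p = 0.0047) was the member of smallest p, a call lost in the fit of the 4 IgG libraries (adjusted p = 0.099). In that fit no p53 target was called, and without NT 2, NT 3, NKO 1 and NKO 2 the numbers were 0, 0, 0 and 1 higher and 1, 1, 3 and 1 lower.

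The IGF axis and the HOXB cluster each held changes in both directions. Of 10 IGF genes tested 3 rose and 2 fell. Over all genes tested 4.92% were called higher and 5.74% lower, the background for each list of this paragraph. IGFBP5 (-1.75 ± 0.42) lost its call without NT 2, NT 3, NKO 1 or NKO 2 (adjusted p = 0.12, 0.093, 0.077 and 0.079), and IGFBP4 (0.63 ± 0.16) without NT 2, NT 3 or NKO 2 (adjusted p = 0.13, 0.12 and 0.13) and after median-of-ratios rescaling (adjusted p = 0.07). The number that rose was 1 after that rescaling and 1 in the fit of the 4 IgG libraries. Beside the fall of IGF2, the binding protein gene IGFBP1 rose from 0.186 and 0.187 to 3.02 and 6.999 TPM (2.26 ± 0.30, limma adjusted p = 0.00075), and IGFBP7 rose by 0.36 ± 0.06 (adjusted p = 0.0046; adjusted p = 0.051 after median-of-ratios rescaling). Of 14 HOX genes 2 rose and 3 fell, all in the HOXB cluster on chromosome 17. HOXB6 fell from 79.6 and 79.2 to 31.3 and 29.8 TPM (-1.35 ± 0.08, adjusted p = 2.0e-06), while its neighbour HOXB7 rose from 41.4 and 42.1 to 76.3 and 73.4 TPM (0.83 ± 0.10, adjusted p = 0.00037). The calls of HOXB2 and HOXB4 (lower) and HOXB9 (higher) each ended without NT 3 (adjusted p = 0.11, 0.18 and 0.13). These genes overlap antisense transcripts, and whether the counting used strand is not given in the sources used here. Of 7 metallothionein list genes 3 rose, MT1A from 0 in both NT libraries to 18.5 and 11.8 TPM and MT1F from 0 in both to 4.01 and 5.06 TPM. Metallothioneins share sequence, so their reads can be split between copies. Of 25 semaphorin, ephrin and slit genes 2 rose and 2 fell, with the axon guidance gene SEMA7A falling from 21.4 and 27.2 to 10.004 and 8.79 TPM (-1.28 ± 0.17, adjusted p = 0.0008) and the netrin gene NTN4 rising from 27.2 and 28.3 to 44.7 and 46.1 TPM (0.69 ± 0.10, adjusted p = 0.0011). The number of these that rose was 1 without NT 2.

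Part of the difference followed position in the genome. Protein-coding genes with a mean of at least 5 TPM were taken in blocks of 10 neighbours, 918 in all. Runs of at least 3 blocks with a median of -0.2 or lower, or of 0.5 or higher, were noted, a rule set after the values were seen and so given without a test. The limits were unequal, so runs with a smaller positive shift were not noted. For example, 3 neighbouring blocks on chromosome 2 had medians of 0.227, 0.278 and 0.258 on IgG. The rule found a stretch of chromosome 8 from ERICH1 to LACTB2 (614746 to 70669174, GRCh38) in which 3 of 202 tested genes were called higher and 85 lower, with a median of -0.47 over 160 genes, of which 149 were below 0. In the TKO line the median over the same genes was 0.01. The median of each NKO library against the NT libraries was -0.39 and -0.57 on IgG and -0.48 and -0.48 on DLL4. The other stretch lay on chromosome 11 from CEP57 to SIK3 (95789965 to 117098437), with 36 of 62 genes called higher and none lower and a median of 0.95. There the TKO line had a median of 1.31 and the NKO libraries 1.04 and 0.87 on IgG and 1.13 and 1.03 on DLL4. Over the whole of chromosome 11 the median against NT on IgG was 0.53 in the TKO line and 0.04 in the NKO line. Together the stretches hold 85 (11.1%) of the genes called lower and 39 (5.96%) of those called higher. With their genes removed, the number called lower went from 7 to 6 Notch targets, 2 to 1 arterial and 8 to 6 matrix genes. It went from 4 to 2 coagulation, 4 to 3 cholesterol synthesis, 3 to 2 p53 target and 3 to 2 mesenchymal genes. The number called higher went from 5 to 4 coagulation and 6 to 5 ATF4 list genes.

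Genes of the chromosome 8 stretch include PDLIM2, an adaptor that promotes turnover of NF-kB p65, which fell from 115 and 127 to 42.8 and 48.7 TPM (-1.39 ± 0.09, limma adjusted p = 6.3e-06), and STC1, the hormone stanniocalcin-1, from 91.0 and 87.0 to 23.5 and 12.9 TPM (-2.29 ± 0.23, adjusted p = 9.8e-05). CTSB, the protease cathepsin B, fell from 808 and 840 to 561 and 531 TPM (-0.59 ± 0.06, adjusted p = 0.00015), the chaperone gene CLU by 1.2 ± 0.15, and EIF4EBP1, a repressor of translation initiation, by 0.61 ± 0.08. On chromosome 11 CASP4, an inflammatory caspase, rose from 28.7 and 28.2 to 70.9 and 69.7 TPM (1.28 ± 0.08, adjusted p = 4.9e-06). NNMT, nicotinamide N-methyltransferase, rose from 48.2 and 46.3 to 143 and 164 TPM (1.68 ± 0.09, adjusted p = 1.6e-06), and the mitochondrial thiolase gene ACAT1 from 31.3 and 27.7 to 61.7 and 58.1 TPM (1.00 ± 0.09, adjusted p = 5.6e-05). Genome copy number was not measured, and its part in these differences was not tested.

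**Figure D5:**
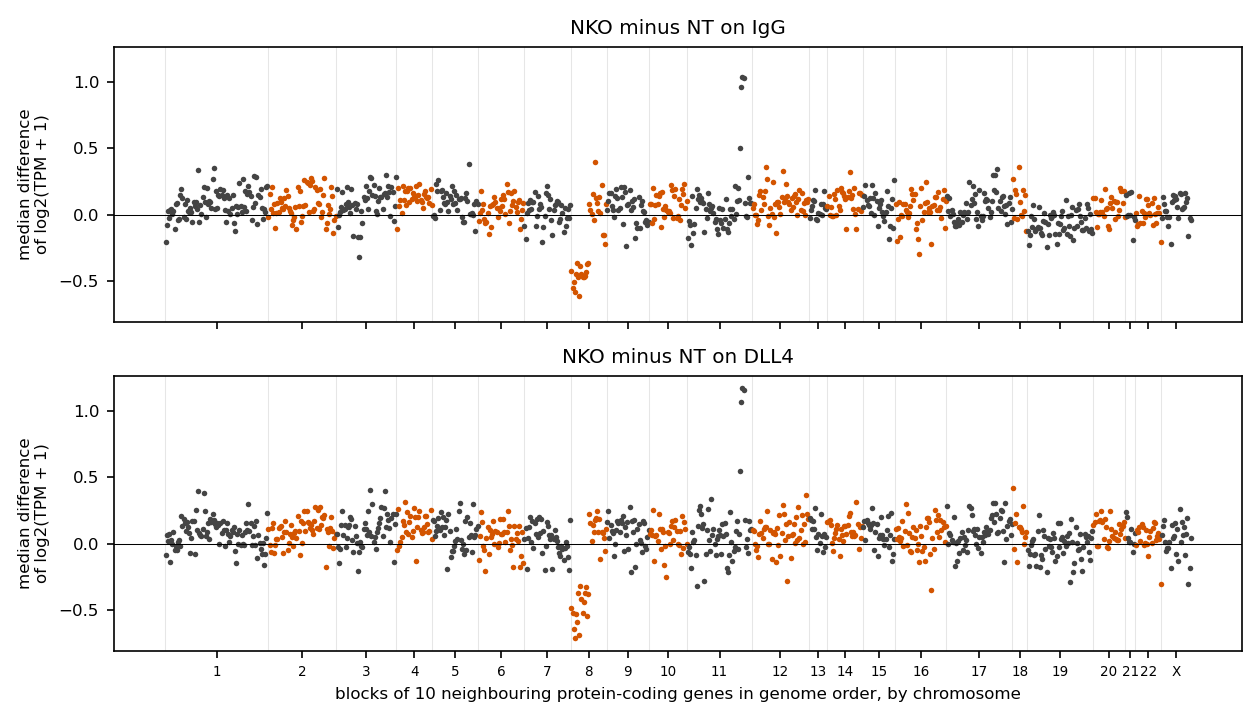
Median difference between NKO and NT in log2(TPM + 1) over blocks of 10 neighbouring protein-coding genes in genome order, one point per block, on IgG (upper panel) and DLL4 (lower panel), with alternating colours for chromosomes. The 16 blocks of the chromosome 8 stretch lie between -0.61 and -0.36 on IgG and the 4 blocks of the chromosome 11 stretch between 0.50 and 1.04, and both stand apart on DLL4 too.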

How the data were processed

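The authors deposited TPM per gene symbol for 12 libraries of polyadenylated RNA. Per the submitters' processing notes, kallisto and edgeR were used with hg38. Their versions, the annotation and any strand setting are not stated in the sources used here. TPM keep no read numbers, so depth is unknown and precision is the spread between the 2 libraries of a group. The labels number libraries 1 and 2, while the columns are numbered 2 and 3 (NT, TKO) or 1 and 2 (NKO). Column numbers are used here. The table held 35587 symbols, 14 of them turned into dates, and library sums were 974989 to 977130.

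A gene was tested if 2 or more libraries reached 1 TPM, which left 13299. In R 4.3.3, limma 3.58.1 fitted log2(TPM + 1) by group (6 means) with a variance trend. Its two-sided moderated p-values were adjusted by the Benjamini-Hochberg method across these genes, with a threshold of 0.05. The 6 residual degrees of freedom became 10.8 after moderation. An exact permutation test of 2 libraries against 2 cannot give p below 0.333. Errors are SE for log2 changes and SD (n = 2) for TPM. Positions came from GENCODE 29 (GRCh38). The fit was tested on simulated data. Figures used matplotlib 3.10.9 in Python 3.11.15.

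The comparison and the gene lists were chosen with earlier results of these data known, so list counts stand without a test. Named were NOTCH1, TSPAN14, members of the Notch lists, the 15 largest called changes per direction (group mean of at least 5 TPM, no overlap), the 5 largest TPM differences per direction, up to 5 members of smallest p per list and up to 4 per chromosome window. Alternatives were a pseudocount of 0.1, 2 other filters, 2 rescalings, the column number as a block, no trend, the 4 IgG libraries alone, removal of KPNA2P2 and leaving out each library. Removal of the genes of the chromosome regions was added after seeing the data.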

Additional observations from a re-analysis of the deposited data

Results flagged for a closer look

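For 18 of the named genes the difference between NKO and NT depended on the coating by limma's test of the difference itself (DLL4 minus IgG, adjusted p below 0.05), and no cause was tested. The difference was more negative on DLL4 for TFF1 (-2.53), DLL4 (-1.95), SLC1A4 (-1.89), HES4 (-1.79), HEY2 (-1.65), SNAI2 (-1.52), CDKN2B (-1.40), G0S2 (-1.26), ANKRD1 (-1.20), FLT1 (-1.02), SPARC (-0.76) and CDKN1A (-0.65). It was more positive on DLL4 for HOXB6 (0.89), BMX (0.92), APLN (1.03), MT2A (1.36), COLEC10 (1.37) and MFNG (1.65). TFF1, the trefoil peptide gene, was at 395 and 405 TPM in the NT and 5.09 and 6.15 TPM in the NKO libraries on DLL4. SLC1A4, a neutral amino acid transporter gene, was higher in NKO cells on IgG (2.98 and 2.87 against 5.20 and 4.65 TPM) and lower on DLL4 (18.3 and 18.0 against 6.39 and 7.27 TPM). The glycosyltransferase gene MFNG was at 113 and 123 against 124 and 133 TPM on IgG, and at 31.5 and 27.6 against 102 and 106 TPM on DLL4.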

How the results depend on the processing

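The number of genes called stayed within 1.5 times of 1418 with no filter (1022 of 26931), rescaling by median of ratios (1655) or quantiles (1665), only genes whose mean reached 5 TPM (1150), a pseudocount of 0.1 (1383), no variance trend (1283), KPNA2P2 removed (1528) and the genes of the chromosome 8 and 11 regions removed (1226). KPNA2P2 held 1.47% and 0.369% of TPM in the NT and 1.14% and 3.65% in the NKO libraries. A fit of only the 4 IgG libraries called 424 genes, 183 higher and 241 lower, with fewer degrees of freedom. Leaving out a library gave 664 to 1579 calls, 325 to 945 higher and 339 to 634 lower, the lone library left being assumed to vary like the other groups. No paired analysis was possible because NT and NKO share only the number 2. A fit of all 12 libraries with the column number as a replicate block called 1091. Among 210 named genes 148 were called, 87 of them under all 14 alternatives in which they were tested, and none changed sign while called. The 4-library fit ended 53 of these calls, no filter 28, the block 14 and leaving out NT 2, NT 3, NKO 1 or NKO 2 ended 32, 41, 28 or 21. Of genes called on IgG the share called in the same direction on DLL4 was 60.2% to 81.3% without a library. TPM without read numbers leave low values without a detection limit.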
